A study of Mus musculus with 16 samples.

Results

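The mitochondrial chromosome of the mouse carries 37 genes, and their transcripts were followed here in the hippocampus of mice aged 9 months. Members were the genes whose symbol starts with mt-. They are 37 of the 55385 genes in the count table and comprise 13 protein-coding genes, 2 ribosomal RNA (rRNA) genes and 22 transfer RNA (tRNA) genes. All 37 lie on chromosome M of GRCm38, 28 on the plus strand and 9 on the minus strand. Polyadenylated RNA was sequenced from 16 libraries, 4 from each genotype, with 2 females and 2 males in each group. 5xFAD-Dp16 mice carry both modifications described next. 5xFAD mice carry amyloid transgenes, including mutant human APP, expressed from Thy1 promoter sequences, which act mainly in neurons. In Dp16 mice a stretch of chromosome 16, largely orthologous to human chromosome 21, is duplicated, which gives 3 copies of each gene in it. WT mice are C57BL/6J, and the background of the other lines is not given in the labels. None of the 37 genes lies in the duplicated part or in a transgene. The design text counts 4 mice per group, and p-values measure the spread between these libraries.

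Mitochondrial DNA encodes core subunits of the respiratory chain and of ATP synthase, together with the rRNAs and tRNAs with which the organelle translates them. It is transcribed as long precursors from both strands, and the precursors are cut mostly at the tRNAs that stand between the other genes. All other proteins of the organelle, among them its RNA polymerase, its ribosomal proteins and most respiratory chain subunits, are encoded in the nucleus. In brain tissue the respiratory chain supplies most of the ATP used for ion pumping at synapses. In bulk tissue, fewer cells of a type and less RNA per cell cannot be told apart.

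Several results below turn on sequence that is shared within the mitochondrial chromosome or with nuclear genes. All sequences are GENCODE M21 transcripts of GRCm38, printed 5′ to 3′ on the transcribed strand. The tRNAs shown first are the 3 with the most counts and 2 of those with none, with the anticodon in capitals.
mt-Tw (chrM:4950-5016, plus strand): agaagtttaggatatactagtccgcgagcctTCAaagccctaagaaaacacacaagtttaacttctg
mt-Tm (chrM:3845-3913, plus strand): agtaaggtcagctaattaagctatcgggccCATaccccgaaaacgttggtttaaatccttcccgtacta
mt-Tt (chrM:15289-15355, plus strand): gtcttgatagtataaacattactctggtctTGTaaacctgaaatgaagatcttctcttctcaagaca
mt-Ts2 (chrM:11613-11671, plus strand): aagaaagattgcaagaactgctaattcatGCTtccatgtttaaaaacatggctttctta
mt-Tg (chrM:9391-9458, plus strand): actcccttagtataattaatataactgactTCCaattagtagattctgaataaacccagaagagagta
The reading frames of mt-Atp8 and mt-Atp6 share 43 bases, in capitals in the stretch printed next, so a read there belongs to both genes.
mt-Atp8 and mt-Atp6 (chrM:7907-7989, plus strand): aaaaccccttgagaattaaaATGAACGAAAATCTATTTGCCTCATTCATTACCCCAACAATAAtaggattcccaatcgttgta
mt-Nd4l is, among the 22 members that passed the filter on low counts, the one whose level differed most between libraries, and its last 7 bases, in capitals, are also the first of mt-Nd4.
mt-Nd4l (chrM:9877-10173, plus strand): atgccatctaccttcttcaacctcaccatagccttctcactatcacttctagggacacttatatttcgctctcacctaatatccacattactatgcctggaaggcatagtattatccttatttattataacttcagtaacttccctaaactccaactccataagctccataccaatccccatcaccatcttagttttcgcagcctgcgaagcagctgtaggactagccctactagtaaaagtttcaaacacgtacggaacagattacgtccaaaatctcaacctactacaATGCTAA
Nuclear chromosome 1 carries a copy of the stretch that runs from within mt-Co1 into mt-Nd4, annotated as 7 genes between chr1:24611535-24616197 on the minus strand. Those of mt-Co2, mt-Atp6, mt-Co3, mt-Nd4l and mt-Nd4 matched the mitochondrial gene without a mismatch over 681, 678, 783, 294 and 876 bases. Those of mt-Co1 and mt-Nd3 differed from it at 1 base each, over 483 and 345 bases, in capitals in the pairs printed next.
mt-Co1 (chrM:6390-6423, plus strand): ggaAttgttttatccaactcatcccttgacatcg
Gm29216 (chr1:24616155-24616188, minus strand): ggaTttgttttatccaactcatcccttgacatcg
mt-Nd3 (chrM:9459-9491, plus strand): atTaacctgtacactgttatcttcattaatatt
Gm28438 (chr1:24613087-24613119, minus strand): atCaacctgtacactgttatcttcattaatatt
Reads were 150 bases long in pairs, and how the counting treated pairs that map equally well to a mitochondrial gene and to its copy is not given in the sources used here.

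Total gene counts ran between 16922937 and 25308693 per library, and TMM factors (trimmed mean of M values, which scale libraries to each other) between 0.945 and 1.13. All 8 marker genes of dentate granule and pyramidal cells and all 10 of excitatory neurons passed the filter on low counts in this tissue labelled hippocampus. Markers of the neighbouring thalamus, of which 12 of 12 passed the filter, were high in 6 libraries, namely 5xFAD-Dp16 1, 5xFAD 6, 13 and 15, Dp16 14 and WT 4. Their score (mean log2 CPM relative to the WT mean) ran from -0.99 to 1.29 in 5xFAD-Dp16, from -0.58 to 1.34 in 5xFAD, from -0.93 to 1.86 in Dp16 and from -0.57 to 1.49 in WT. The 5xFAD group thus holds 3 of the 6, and results are given without these 6 libraries where that changes them. Choroid plexus markers, of which 10 of 10 passed the filter, spread more widely on the same scale. Their score ran from -4.09 to 0.45 in 5xFAD-Dp16 and from -4.39 to 1.33 in 5xFAD. It ran from -4.64 to -1.26 in Dp16 and from -2.19 to 1.69 in WT. Relative to the WT mean, group means were -2.37 in 5xFAD-Dp16, -1.53 in 5xFAD and -3.39 in Dp16. The part of choroid plexus in the results below was not tested.

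The mitochondrial share of a library did not differ between genotypes beyond the spread of the libraries. All 37 genes together took 20552933 counts over the 16 libraries, 17954736 of them on protein-coding genes, 2592221 on rRNA genes and 5976 on tRNA genes. Values are listed in the order of the library numbers, which are 1, 8, 9 and 11 in 5xFAD-Dp16, 6, 10, 13 and 15 in 5xFAD, 3, 5, 12 and 14 in Dp16, and 2, 4, 7 and 16 in WT. The share of all gene counts was 6.79, 5.64, 5.87 and 6.13% in 5xFAD-Dp16 and 5.50, 6.18, 6.23 and 4.96% in 5xFAD. It was 5.12, 5.72, 5.21 and 6.18% in Dp16 and 6.87, 5.20, 5.43 and 5.44% in WT. The highest value, in WT 2, and the lowest, in 5xFAD 15, belong to different genotypes, and all 4 groups overlap. Group means were 6.11 ± 0.496% in 5xFAD-Dp16, 5.72 ± 0.604% in 5xFAD, 5.56 ± 0.493% in Dp16 and 5.73 ± 0.762% in WT (SD, n = 4 each).

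Each share was compared over libraries with an exact two-sided permutation test, and p-values were adjusted by Benjamini-Hochberg over 8 comparisons and 4 sums. The smallest p that 4 against 4 libraries can give is 0.0286. The difference between 5xFAD-Dp16 and Dp16 was 0.549 percentage points (exact permutation p = 0.2, adjusted p = 1). For 5xFAD-Dp16 against 5xFAD it was 0.386 points (exact permutation p = 0.371, adjusted p = 1). Without the 6 libraries of high thalamus markers, which leaves 1 5xFAD library, that difference was -0.304 points. Over all libraries it was -0.0143 points for 5xFAD against WT (exact permutation p = 1) and -0.177 points for Dp16 against WT (exact permutation p = 0.714). Without the 6 libraries the difference between 5xFAD, then 1 library, and WT was 0.272 points. That between 5xFAD-Dp16 and WT, 0.372 points over all libraries, was then -0.0311 points. Females had a mean share of 5.98% and males one of 5.57% (exact permutation p = 0.179 within genotypes, adjusted p = 1, n = 8 each). Adjusted p was 1 in all 32 tests of shares. Counting error was not the limit, since the 95% Wilson interval of a library's share reached at most 0.0120 points to either side; it covers counting error only. The libraries of high thalamus markers had a median share of 5.84% and the other 10 one of 5.68%.

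**Figure D1:**
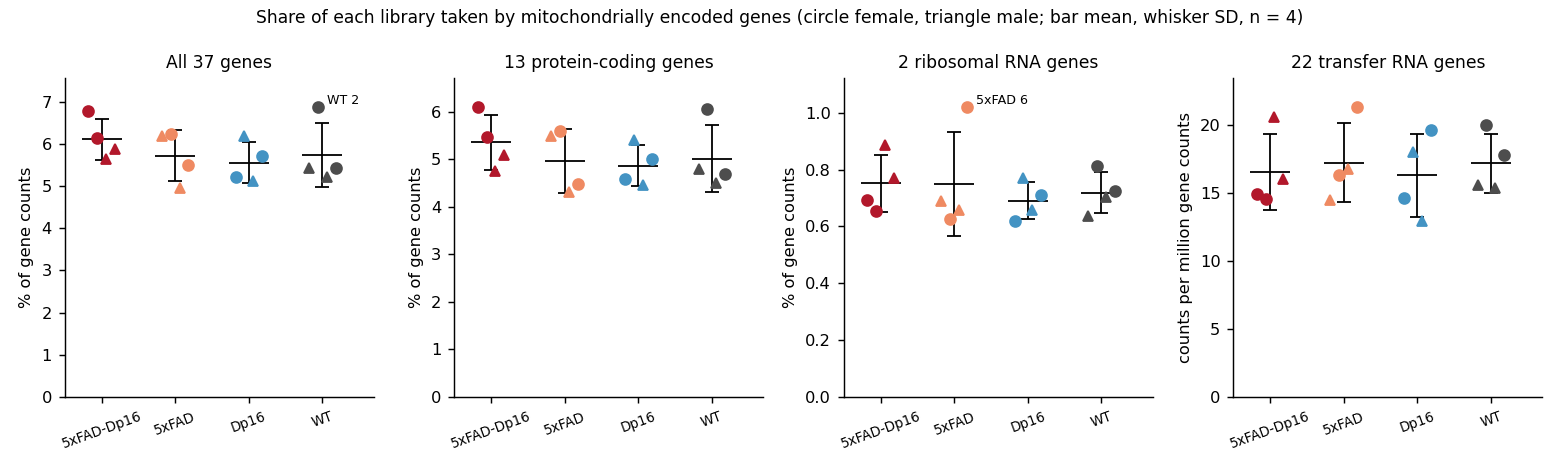
Share of all gene counts taken by the 37 mitochondrial genes and by each class, with 1 point per library (percent, and unscaled CPM for the tRNA genes), bars for the group mean and whiskers for the SD. The 4 genotypes overlap in every panel, with WT 2 highest for all genes (6.87%) and 5xFAD 6 highest for rRNA (1.02%).

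By class, protein-coding genes took 5.35 ± 0.574% of counts in 5xFAD-Dp16, 4.97 ± 0.672% in 5xFAD, 4.87 ± 0.432% in Dp16 and 5.01 ± 0.704% in WT (SD, n = 4 each). The rRNA genes took 0.693, 0.885, 0.772 and 0.655% in 5xFAD-Dp16 and 1.02, 0.690, 0.627 and 0.658% in 5xFAD. They took 0.659, 0.710, 0.621 and 0.770% in Dp16 and 0.811, 0.704, 0.726 and 0.635% in WT. The 5xFAD 6 library stood above all others at 1.02%, and the other 5xFAD libraries spanned 0.627 to 0.690%. Relative to all gene counts and before TMM scaling, the tRNA genes had 14.9, 20.6, 16.1 and 14.6 CPM in 5xFAD-Dp16 and 21.3, 14.5, 16.4 and 16.8 in 5xFAD. They had 13, 19.6, 14.7 and 18 CPM in Dp16 and 20.03, 15.4, 17.8 and 15.6 in WT. No class differed between genotypes beyond the spread (exact permutation tests, smallest p = 0.229 among the 5 pairwise comparisons of protein-coding, rRNA and tRNA sums, adjusted p = 1).

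The balance between rRNA and protein-coding counts varied between libraries of the same genotype, and it was not tested between genotypes. There were 11.4, 18.6, 15.1 and 12 rRNA counts per 100 protein-coding counts in the 5xFAD-Dp16 libraries and 22.7, 12.6, 11.2 and 15.3 in the 5xFAD libraries. There were 14.8, 14.2, 13.5 and 14.2 in the Dp16 libraries and 13.4, 15.6, 15.5 and 13.2 in the WT libraries. The 2 highest values, in 5xFAD 6 and 5xFAD-Dp16 8, stand beside the lowest ones within the same 2 genotypes. The groups without amyloid transgenes stayed between 13.2 and 15.6, and the difference in spread was not tested. The ratio of mt-Rnr2 to mt-Rnr1 counts was 1.29 to 1.63 over all libraries, with its highest value again in 5xFAD 6. Thalamus markers were high in 5xFAD 6 and not in 5xFAD-Dp16 8, and their part in these ratios was not tested.

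Levels between genes can be compared per length, on the deposited RPKM scale, which relates reads to gene length and library size. They are levels in libraries of polyadenylated RNA, and how fully rRNA and mRNA enter such libraries was not tested. Of all genes in the table, mt-Co1, the catalytic subunit of cytochrome c oxidase, had the highest mean RPKM over the 16 libraries, 10533. It was followed by mt-Cytb, the cytochrome b of complex III (9164), and by the complex I subunits mt-Nd1 (7691), mt-Nd2 (5338) and mt-Nd5 (3698). The 12S rRNA gene mt-Rnr1 (3164), the complex I subunit mt-Nd4 (2714) and the 16S rRNA gene mt-Rnr2 (2687) came next among the members, at ranks 6, 8 and 9 of all genes. These 8 genes held 99.4% of all mitochondrial counts. Their ranges over libraries overlap between neighbours in this order, for example 8934 to 12499 RPKM for mt-Co1 and 7545 to 11382 RPKM for mt-Cytb, except between mt-Nd1 (6677 to 9496 RPKM) and mt-Nd2 (4275 to 6622 RPKM). The next gene, mt-Co2, lay far below. Its mean was 219 RPKM and its range 179 to 272 RPKM.

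The remaining protein-coding genes were low. Their means were 104.5 RPKM for mt-Atp6, 97.3 for mt-Nd6, 72.7 for mt-Co3, 56.8 for mt-Atp8, 43.7 for mt-Nd4l and 13.9 for mt-Nd3. mt-Atp6 and mt-Atp8 encode subunits of ATP synthase, mt-Co2 and mt-Co3 core subunits of cytochrome c oxidase, and mt-Nd3, mt-Nd4l and mt-Nd6 subunits of complex I. Of the low genes 5, namely mt-Co2, mt-Atp6, mt-Co3, mt-Nd4l and mt-Nd3, have an exact copy in a nuclear transcript for 97% to 99.8% of their windows of 150 bases, the length of a read. Among them the highest mean was 219 RPKM. For mt-Nd4 the copied share was 59.2% and for mt-Co1 23.6%. The other 6 protein-coding genes and both rRNA genes had no such window, and among those 6 were both mt-Cytb at 9164 RPKM and the low genes mt-Nd6 and mt-Atp8. However, mt-Atp8 lies between mt-Co2 and mt-Atp6, inside the stretch copied on chromosome 1. Only annotated nuclear transcripts were searched, so the lack of a window does not show that the genome holds no copy of it. mt-Nd6 is the only protein-coding gene on the minus strand, and in human cells its transcript lacks the poly(A) tail of the others. The part of the copies in these levels was not tested.

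**Figure D2:**
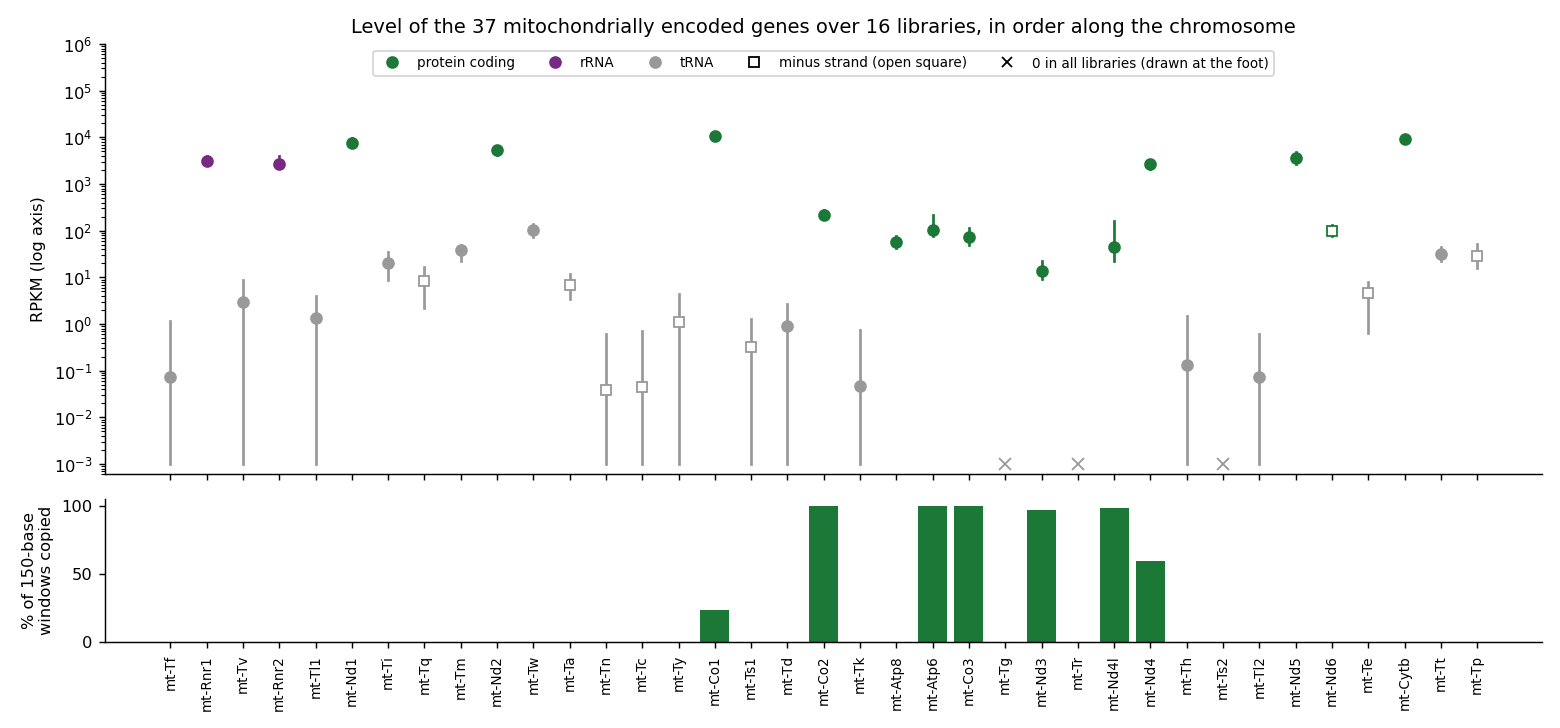
Mean RPKM (log axis) of the 37 mitochondrial genes over 16 libraries in their order along the chromosome, with lines for the range over libraries that are cut at the foot where a library had 0, and below it the share of 150-base windows with an exact copy in a nuclear transcript. The stretch between mt-Co2 and mt-Nd4l, with copied shares of 97% to 99.8% except in mt-Atp8, has means of 13.9 to 219 RPKM for its protein-coding genes, against 2687 to 10533 RPKM for the 8 highest genes.

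Counts on the copies themselves were of the same order as those on the low genes. Over all libraries mt-Co2 had 53107 counts and its copy Gm28661 had 40640. mt-Atp6 had 24995 and Gm10925 had 28590. mt-Co3 had 20351 and Gm28437 had 16822. In 2 of these 3 pairs the mitochondrial gene had more counts, and in the pair of mt-Atp6 the copy did. For the shorter genes, mt-Nd3 had 1726 counts and Gm28438 had 2024, and mt-Nd4l had 4442 and Gm10222 had 3045. The copy thus took 40.7% to 54.0% of the counts of each of these 5 pairs. For mt-Nd4 and mt-Co1, which extend beyond the stretch copied on chromosome 1, the copies Gm28439 and Gm29216 took 0.949% and 0.353%. Less similar copies lie on chromosomes 2 and 13. Gm13340 matched 1545 bases of mt-Co1 at 97.6% identity and had 25975 counts. Gm13341 (mt-Co2, 95.9%), Gm13339 (part of mt-Nd2, 96.7%) and Gm4076 (part of mt-Nd5, 95.2%) had 1755, 2832 and 656 counts. Since the pairs of the chromosome 1 stretch share sequence and the treatment of reads that match both is not known, the value of either gene alone is uncertain.

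Transfer RNAs were counted rarely in these libraries of polyadenylated RNA. Their genes are 59 to 75 bases long, shorter than a read of 150 bases. The part of reads that reach into neighbouring genes in these counts was not tested. Of 5976 tRNA counts, mt-Tw (tryptophan) held 2441, mt-Tm (methionine) 939 and mt-Tt (threonine) 768, together 69.4%. mt-Tw had 6.86, 8.69, 7.71 and 4.94 CPM in the 5xFAD-Dp16 libraries and 8.35, 4.94, 5.43 and 6.43 CPM in the 5xFAD libraries. It had 5.21, 9.13, 6.14 and 6.85 CPM in the Dp16 libraries and 9.73, 5.47, 8.04 and 6.51 CPM in the WT libraries. The groups overlap throughout. mt-Tm averaged 2.22 ± 0.575, 2.78 ± 0.414, 2.66 ± 0.512 and 2.83 ± 0.305 CPM in 5xFAD-Dp16, 5xFAD, Dp16 and WT (SD, n = 4 each). By library mt-Tm had 1.88, 2.79, 1.59 and 2.61 CPM in the 5xFAD-Dp16 libraries and 3.06, 2.39, 3.20 and 2.46 CPM in the 5xFAD libraries. It had 2.46, 2.78, 2.09 and 3.30 CPM in the Dp16 libraries and 2.40, 2.97, 3.10 and 2.85 CPM in the WT libraries. Its lowest values were in 5xFAD-Dp16 and its highest in Dp16 14, with all groups overlapping. mt-Tt had 2.18, 2.71, 3.04 and 1.51 CPM in the 5xFAD-Dp16 libraries and 2.66, 2.39, 2.52 and 2.25 CPM in the 5xFAD libraries. It had 1.68, 1.87, 1.56 and 2.16 CPM in the Dp16 libraries and 2.40, 1.97, 1.51 and 1.93 CPM in the WT libraries. The 5xFAD-Dp16 group spanned 1.51 to 3.04 CPM of mt-Tt and overlapped all 3 other groups. A library had 32 to 66 counts of mt-Tt, and 5xFAD was not tested against Dp16. In all, 7 tRNA genes passed the filter on low counts, namely mt-Tw, mt-Tm, mt-Tt, mt-Tp, mt-Ti, mt-Tq and mt-Ta. Another 12 had between 1 and 113 counts over the 16 libraries. mt-Tg, mt-Tr and mt-Ts2 had 0 of 357212156 counts, which allows up to 0.0084 CPM. The 14 tRNA genes on the plus strand had 4776 counts and the 8 on the minus strand 1200.

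No member was called in any comparison. Counts were tested with edgeR's quasi-likelihood test over 17132 genes, with Benjamini-Hochberg adjustment and a threshold of 0.05, and 22 members passed the filter on low counts (13 protein-coding, 2 rRNA and 7 tRNA genes). In 5xFAD-Dp16 against 5xFAD, 0 of 22 were called, where 0.304% of all genes were. In 5xFAD-Dp16 against Dp16 it was 0 of 22, with 3.02% of all genes called, and in 5xFAD-Dp16 against WT 0 of 22, with 3.20%. In 5xFAD against WT, where 7.26% of all genes were called, and in Dp16 against WT, where 0.228% were, the count was again 0 of 22. It was also 0 for carriers against non-carriers of the amyloid transgenes (8.60% of all genes), for carriers against non-carriers of the duplication (0.531%), for females against males (0.0642%), and for the interaction of the 2 modifications (0% of all genes, with 6.5% below an unadjusted p of 0.05). At an unadjusted p below 0.05 there were 2 members in Dp16 against WT, 2 in the interaction, 0 for the duplication and 1 in each of the other 6 comparisons. Over all genes that share was 5.7% in Dp16 against WT, 24.9% in 5xFAD against WT, 19.1% in 5xFAD-Dp16 against 5xFAD, 11.2% against Dp16 and 9.6% against WT. It was 25.2% for the amyloid transgenes, 16.9% for the duplication and 5.72% between the sexes. DESeq2 called 1 member, mt-Nd4l in 5xFAD against WT (adjusted p = 0.0125), and limma on log2(RPKM + 0.1) called none in these 9 comparisons, with 0 to 2 members below an unadjusted p of 0.05. With 1 library left out, edgeR called mt-Nd4l in 5xFAD against WT without WT 4, WT 7 or 5xFAD 10 and in 5xFAD-Dp16 against WT without WT 7, and mt-Nd5 in 5xFAD-Dp16 against 5xFAD without 5xFAD 10. Over all genes, DESeq2 called 2124 of 17132 in 5xFAD against WT. By edgeR 932 of 17453 were called there without WT 4, 712 of 17479 without WT 7 and 3486 of 17440 without 5xFAD 10. In the other 2 fits named, 462 of 17479 and 2045 of 17440 were called.

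The most abundant members show the size of difference that these libraries could have hidden. mt-Co1 had 18781, 15717, 16758 and 17183 CPM in the 5xFAD-Dp16 libraries and 14359.5, 17151, 17802 and 13522 CPM in the 5xFAD libraries. It had 14525, 16498, 14324 and 17616 CPM in the Dp16 libraries and 20133, 14628, 15655 and 16012 CPM in the WT libraries. WT 2 was the highest and 5xFAD 15 the lowest. The log2 fold change of mt-Co1 was -0.08 ± 0.13 in 5xFAD against WT (SE, adjusted p = 0.750, edgeR), with a 95% interval of -0.35 to 0.20. In Dp16 against WT it was -0.07 ± 0.13 (adjusted p = 0.997, edgeR), with an interval of -0.35 to 0.20. Without WT 2 and WT 16 both estimates changed sign, to 0.031 and 0.047. Over the 13 protein-coding members the median half-width of the 95% interval was 0.34 on the log2 scale in each pairwise comparison with WT.

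mt-Cytb had 13037, 9393, 11211 and 11469 CPM in the 5xFAD-Dp16 libraries and 8434, 12551, 11801 and 7637 CPM in the 5xFAD libraries. It had 9932, 10832, 9891 and 10632 CPM in the Dp16 libraries and 12875, 8970.0, 9526 and 10023 CPM in the WT libraries. Its highest value was in 5xFAD-Dp16 1 and its lowest in 5xFAD 15. mt-Nd5 had 8919.9, 6717, 7575 and 7935 CPM in the 5xFAD-Dp16 libraries and 4605, 7791, 7468 and 4392.6 CPM in the 5xFAD libraries. It had 6436, 7031, 6713 and 6750.5 CPM in the Dp16 libraries and 8436, 5416, 6003 and 6221 CPM in the WT libraries. The Dp16 libraries lay close together, between 6436 and 7031 CPM, whereas the 5xFAD libraries 6 and 15 lay far below 10 and 13.

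mt-Nd1 had 8645, 7004, 7142 and 7932 CPM in the 5xFAD-Dp16 libraries and 6294, 8354, 7677 and 5733 CPM in the 5xFAD libraries. It had 6639, 7899, 7200.5 and 7992 CPM in the Dp16 libraries and 9475, 6216, 6766 and 7065 CPM in the WT libraries. WT 2 was the highest library and 5xFAD 15 the lowest. mt-Nd2 had 6679, 5578, 5653 and 5735 CPM in the 5xFAD-Dp16 libraries and 4808, 5803, 5784 and 3927 CPM in the 5xFAD libraries. It had 5056, 6035, 5478 and 5994 CPM in the Dp16 libraries and 7167, 4642, 5563 and 5018 CPM in the WT libraries. The extremes were the same libraries as for mt-Nd1. mt-Nd6, alone among them on the minus strand, had 69.4, 49.1, 51.6 and 50.9 CPM in the 5xFAD-Dp16 libraries and 37.3, 60.5, 51.5 and 39.6 CPM in the 5xFAD libraries. It had 52.5, 53.1, 50.3 and 51.3 CPM in the Dp16 libraries and 62.7, 44.2, 45.5 and 41.2 CPM in the WT libraries. Here 5xFAD-Dp16 1 was the highest and 5xFAD 6 the lowest, and the groups overlap.

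mt-Rnr1 had 2963, 3696, 3425 and 2783 CPM in the 5xFAD-Dp16 libraries and 3615, 2952, 2500.4 and 2328 CPM in the 5xFAD libraries. It had 2993, 3181, 2759 and 3208 CPM in the Dp16 libraries and 3540.2, 2874, 2951 and 2634 CPM in the WT libraries. It was highest in 5xFAD-Dp16 8 and lowest in 5xFAD 15. mt-Rnr2 had 3974, 5335, 4537 and 3739 CPM in the 5xFAD-Dp16 libraries and 5902, 4108, 3648 and 3497 CPM in the 5xFAD libraries. It had 3856, 4336, 3682 and 4351 CPM in the Dp16 libraries and 4914, 3898, 4421 and 3768 CPM in the WT libraries. It was highest in 5xFAD 6 and again lowest in 5xFAD 15, and the groups overlap for both genes.

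The protein-coding members leaned to one side together in 2 of the pairwise comparisons, without any of them being called. In 5xFAD-Dp16 against 5xFAD all 13 had positive log2 fold changes, from 0.03 to 0.35 with a median of 0.20, where the median of all genes tested was -0.03. In 5xFAD against WT 12 of 13 were negative, with a median of -0.10, where that of all genes was 0.03. These comparisons share the 5xFAD libraries. Without the 6 libraries of high thalamus markers, which leaves 1 5xFAD library, both medians changed sign. Positive values were then found for 3 of 13 (median -0.09) in 5xFAD-Dp16 against 5xFAD and for 8 of 13 (median 0.10) in 5xFAD against WT. With the thalamus score as a term over all 16 libraries, the medians kept their sign, at 0.14 in 5xFAD-Dp16 against 5xFAD and -0.09 in 5xFAD against WT. In 5xFAD against WT the median changed sign without WT 2 and WT 16, to 0.031. In 5xFAD-Dp16 against Dp16 the median was 0.12 with 11 of 13 positive, and without the 6 libraries 0.11 with 12 of 13 positive. In Dp16 against WT it was 0.0012 with 7 of 13 positive, and -0.10 with 2 of 13 positive without the 6 libraries. Females had higher estimates than males for all 13 (median 0.14, 0.0046 over all genes), and for 12 of 13 without the 6 libraries (median 0.12). Since all members share library totals and precursors, they are not independent of each other.

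**Figure D3:**
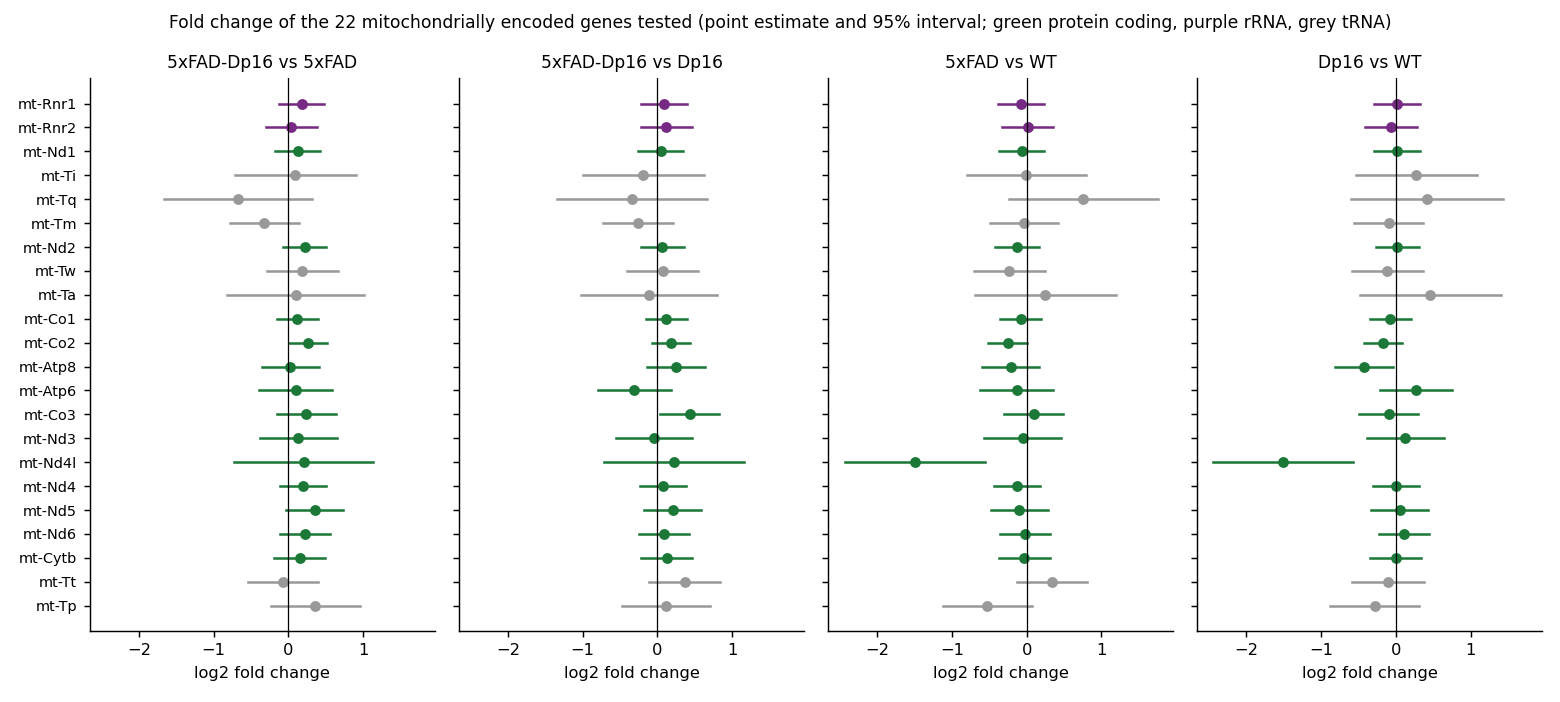
Log2 fold change with its 95% interval (edgeR) for the 22 mitochondrial genes tested, in chromosome order, in 4 comparisons. Intervals of nearly all genes include 0, and mt-Nd4l stands apart against WT at -1.50 (5xFAD) and -1.51 (Dp16).

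mt-Nd4l had the lowest adjusted p of any member in the comparisons with WT, and its values there rest on 2 WT libraries. It had 11.6, 9.76, 10.6 and 8.51 CPM in the 5xFAD-Dp16 libraries and 6.45, 12.4, 9.60 and 6.53 CPM in the 5xFAD libraries. It had 6.86, 9.24, 7.83 and 10.7 CPM in the Dp16 libraries and 50.5, 12.7, 8.89 and 27.6 CPM in the WT libraries. WT 2 and WT 16 stood above all 14 other libraries, and WT 4 and WT 7 had 12.7 and 8.89 CPM, close to the range of the other groups. The log2 fold change was -1.29 ± 0.43 in 5xFAD-Dp16 against WT (adjusted p = 0.202, edgeR), -1.50 ± 0.43 in 5xFAD against WT (adjusted p = 0.0539, edgeR) and -1.51 ± 0.43 in Dp16 against WT (adjusted p = 0.535, edgeR). In the interaction it was 1.72 ± 0.61 (adjusted p = 0.718, edgeR). Without WT 2 and WT 16, an alternative chosen after seeing these values, the 3 estimates against WT were -0.09, -0.32 and -0.32 (adjusted p = 0.996, 0.619 and 0.998, edgeR). Without WT 2 alone they were -0.61, -0.83 and -0.84. The interaction estimate was 0.54 without both libraries and 1.06 without WT 2 alone. The copy Gm10222 did not stand apart in the same way, with 11.8, 7.10, 8.14 and 9.70 CPM in WT and values of 5.58 to 10.6 CPM in the other 12 libraries. With the counts of both added together, the estimate in 5xFAD against WT was -1.07 (adjusted p = 0.0679, edgeR).

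Single libraries also stood out for other genes of the copied stretch. mt-Atp6 had 72.9, 65.3, 67.6 and 61.8 CPM in the 5xFAD-Dp16 libraries and 69.2, 61.5, 72.6 and 50.6 CPM in the 5xFAD libraries. It had 54, 153, 63.6 and 72.2 CPM in the Dp16 libraries and 92.8, 64.1, 67.3 and 55.8 CPM in the WT libraries. Dp16 5 was far above the rest, while its copy Gm10925 had 96.3 CPM in that library and 59.8 to 111 CPM elsewhere. mt-Co3 had 83.6 CPM in 5xFAD 6 and 47.7 to 49.5 CPM in the other 5xFAD libraries. Gm29216, the copy of the end of mt-Co1, had 284 CPM in Dp16 3 and 29.3 to 66.2 CPM in the other libraries. Gm28661, the copy of mt-Co2, had 233 CPM in 5xFAD 6 and 78.6 to 139 CPM elsewhere. mt-Co1 in Dp16 3 and mt-Co2 in 5xFAD 6 lay within the range of the other libraries.

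**Figure D4:**
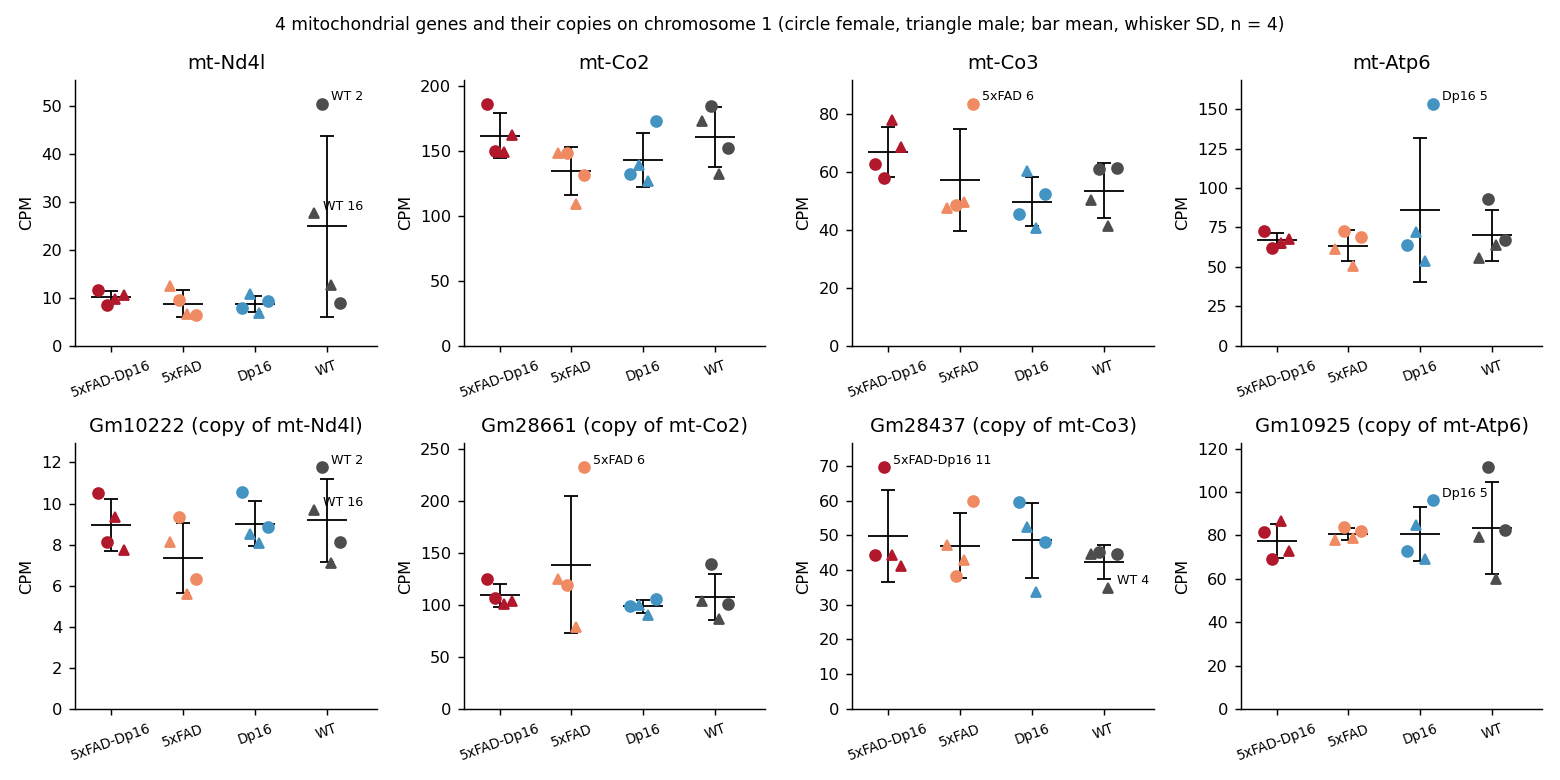
CPM of 4 mitochondrial genes (top) and of their copies on chromosome 1 (bottom), with 1 point per library, bars for the group mean and whiskers for the SD. WT 2 and WT 16 stand out for mt-Nd4l (50.5 and 27.6 CPM), Dp16 5 for mt-Atp6 (153 CPM) and 5xFAD 6 for Gm28661 (233 CPM), and the partner genes show no excess of that size in the same libraries.

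A further 5 members had an unadjusted p below 0.05 and were not called. mt-Co2 had a log2 fold change of 0.27 ± 0.12 in 5xFAD-Dp16 against 5xFAD (adjusted p = 0.246, edgeR) and 0.44 ± 0.17 in the interaction (adjusted p = 0.718, edgeR). With the counts of its copy added, the first of these was 0.00057 (adjusted p = 0.998, edgeR). mt-Co3 stood at 0.43 ± 0.19 in 5xFAD-Dp16 against Dp16 (adjusted p = 0.383, edgeR), 0.60 without the 6 libraries of high thalamus markers (adjusted p = 0.0306, edgeR) and 0.25 with its copy added (adjusted p = 0.592, edgeR). mt-Atp8 stood at -0.43 ± 0.18 in Dp16 against WT (adjusted p = 0.806, edgeR). mt-Tt was at 0.35 ± 0.16 in carriers against non-carriers of the amyloid transgenes (adjusted p = 0.176, edgeR), and mt-Atp6 at 0.39 ± 0.16 in females against males (adjusted p = 0.848, edgeR). Without Dp16 5, a female library, the value of mt-Atp6 was 0.21.

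Nuclear genes that serve the mitochondrial genome gave few calls. Lists for transcription, RNA processing, translation, the respiratory chain, biogenesis and protein quality control held 254 tested genes outside the duplicated part of chromosome 16. In 5xFAD against WT 4 of the 254 rose and none fell, where 7.26% of all genes were called. They were Ssbp1, the single-stranded DNA-binding protein of mitochondria (0.46 ± 0.11, adjusted p = 0.0217, edgeR), and Hsd17b10, a subunit of mitochondrial RNase P (0.29 ± 0.079, adjusted p = 0.0332, edgeR). The remaining pair were the ribosomal protein genes Mrpl52 (0.39 ± 0.089, adjusted p = 0.0136, edgeR) and Mrpl24 (0.34 ± 0.097, adjusted p = 0.0434, edgeR). None of these 4 was called without the 6 libraries of high thalamus markers, which leaves 1 5xFAD library, nor without WT 2 and WT 16. The fold changes of Ssbp1, Hsd17b10, Mrpl52 and Mrpl24 were then 0.31, 0.23, 0.33 and 0.28 without the 6 libraries and 0.45, 0.27, 0.35 and 0.21 without WT 2 and WT 16, all on the log2 scale. The count of 4 was 30 without 5xFAD 10, 15 without 5xFAD 13, and 0 to 2 without 5xFAD 6, 5xFAD 15, WT 2, WT 7 or WT 16. Over all genes, 3486 of 17440 were called without 5xFAD 10 and 1473 of 17399 without 5xFAD 13. Without 1 of the other libraries named, 562 to 880 genes were called. In carriers against non-carriers of the amyloid transgenes Hsd17b10 (0.20 ± 0.056, adjusted p = 0.0360) and Mrpl52 (0.22 ± 0.063, adjusted p = 0.0363) rose in edgeR, and Lrpprc, which stabilises mitochondrial mRNAs, fell by 0.19 on the log2 scale (SE 0.052, adjusted p = 0.0277). That count of 3 was 12 without 5xFAD 10 and 0 to 1 without any 1 of 9 other libraries, namely 5xFAD-Dp16 1, 9 and 11, 5xFAD 6 and 15, Dp16 3, 5 and 12, and WT 2. Over all genes, 3327 of 17440 were called without 5xFAD 10, and 1050 to 1347 genes without any 1 of those 9.

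Atf5, a transcription factor of the mitochondrial stress response, rose in 5xFAD-Dp16 against WT (0.48 ± 0.11, adjusted p = 0.0227, edgeR), and was not called without 5xFAD-Dp16 9 or 11, WT 2 or WT 4. Ndufa1, a complex I subunit, fell by 0.23 in carriers against non-carriers of the duplication (SE 0.046, adjusted p = 0.0274, edgeR). The list count of 1 in that comparison was 19 without 5xFAD 10, 2 without 5xFAD 13 and 0 without 5xFAD-Dp16 8, 9 or 11, 5xFAD 6, Dp16 3, 5 or 12, or WT 4, 7 or 16. Over all genes, 1199 of 17440 were called without 5xFAD 10 and 111 of 17399 without 5xFAD 13. Without 1 of the other libraries named, 64 to 82 genes were called. No list gene outside the duplicated part was called by edgeR in 5xFAD-Dp16 against 5xFAD, where 102 of 254 had an unadjusted p below 0.05, against 19.1% of all genes, and DESeq2 called 23. There edgeR called 63 without 5xFAD 10 and 6 without 5xFAD 13. Over all genes in that comparison DESeq2 called 720 of 17132. By edgeR 2045 of 17440 were called without 5xFAD 10 and 187 of 17399 without 5xFAD 13. No list gene was called by edgeR in 5xFAD-Dp16 against Dp16 (19 unadjusted, 11.2% of all genes, 4 by DESeq2), in Dp16 against WT (9 unadjusted, 5.7% of all genes, 0 by DESeq2), in the interaction (47 unadjusted, 6.5% of all genes, 0 by DESeq2) or between the sexes (7 unadjusted, 5.72% of all genes, 0 by DESeq2), again outside the duplicated part. In 5xFAD-Dp16 against Dp16 DESeq2 called 689 of 17132 genes. Inside the duplicated part, Gabpa, a regulator of nuclear genes for mitochondria, rose in Dp16 against WT (0.54 ± 0.088, adjusted p = 0.00983, edgeR). So did Mrpl39, a mitochondrial ribosomal protein (0.67 ± 0.092, adjusted p = 0.00185, edgeR), and the ATP synthase subunits Atp5o (0.56 ± 0.083, adjusted p = 0.00381, edgeR) and Atp5j (0.60 ± 0.089, adjusted p = 0.00391, edgeR). Mrps6, another ribosomal protein gene and the fifth list gene there, stood at 0.43 ± 0.15 and was not called (adjusted p = 0.705, edgeR). All 5 genes are present in 3 copies in Dp16 mice. Without WT 2 and WT 16 none of Gabpa, Mrpl39, Atp5o and Atp5j was called, at log2 fold changes of 0.44, 0.68, 0.58 and 0.63 (adjusted p = 0.334, 0.0597, 0.0923 and 0.0575, edgeR). Of these 4, limma called Mrpl39 alone, and Gabpa was also not called by edgeR without the sex term or without any 1 of WT 2, WT 16, Dp16 3 and Dp16 12. In 5xFAD-Dp16 against 5xFAD, of these 5 genes Gabpa rose (0.78 ± 0.088, adjusted p = 0.000309, edgeR). Mrpl39, Atp5o, Atp5j and Mrps6 stood at 0.37, 0.32, 0.24 and 0.37 there and were not called (adjusted p = 0.0943, 0.0997, 0.177 and 0.202, edgeR).

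Nuclear and mitochondrial subunits of the respiratory chain and ATP synthase had medians of opposite sign in 4 of the 5 pairwise comparisons. That count is over all 16 libraries, and it was lower without the 6 of high thalamus markers. For the 71 nuclear genes of complexes I, III, IV and V outside the duplicated part, the median log2 fold change was -0.28 in 5xFAD-Dp16 against 5xFAD, with all 71 negative, and 0.18 in 5xFAD against WT, with 68 of 71 positive. The 13 mitochondrial protein-coding genes had medians of 0.20 and -0.10 in the same comparisons. In 5xFAD-Dp16 against Dp16 the nuclear median was -0.12, with 69 of 71 negative, and the mitochondrial one 0.12. In 5xFAD-Dp16 against WT they were -0.12, with 70 of 71 negative, and 0.07, and in Dp16 against WT both lay close to 0 (0.013 and 0.0012). The signs also differed for carriers against non-carriers of the duplication (-0.14 and 0.08) and for females against males (-0.07 and 0.14). By library, the mean log2 CPM of the 71 genes relative to all libraries was -0.17, -0.11, -0.08 and -0.14 in 5xFAD-Dp16 and 0.32, 0.04, -0.06 and 0.28 in 5xFAD. It was -0.05, -0.06, -0.05 and 0.12 in Dp16 and -0.12, -0.014, 0.0064 and 0.096 in WT. The 5xFAD libraries 6 and 15 stood above all others for the nuclear genes and were at -0.17 and -0.38 for the mitochondrial ones. Both are among the libraries of high thalamus markers and have the lowest scores for excitatory neuron markers, -0.69 and -1.35. The rest of the high thalamus libraries, 5xFAD-Dp16 1, 5xFAD 13, Dp16 14 and WT 4, did not share these nuclear values. They were at -0.17, -0.06, 0.12 and -0.014 for the nuclear genes and at 0.25, -0.01, 0.04 and -0.22 for the mitochondrial ones. The part of these markers in the result was not tested. Without the 6 libraries, which leaves 1 5xFAD library, the nuclear median was -0.11 in 5xFAD-Dp16 against 5xFAD, with 63 of 71 negative. In 5xFAD against WT it was -0.0088, with 34 of 71 positive. The mitochondrial medians of these 2 comparisons were -0.09 and 0.10. Nuclear and mitochondrial medians were then -0.11 and -0.0093 in 5xFAD-Dp16 against WT, and -0.05 and -0.10 in Dp16 against WT. They were -0.07 and 0.11 in 5xFAD-Dp16 against Dp16, -0.08 and -0.11 for the duplication, and -0.07 and 0.12 between the sexes.

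**Figure D5:**
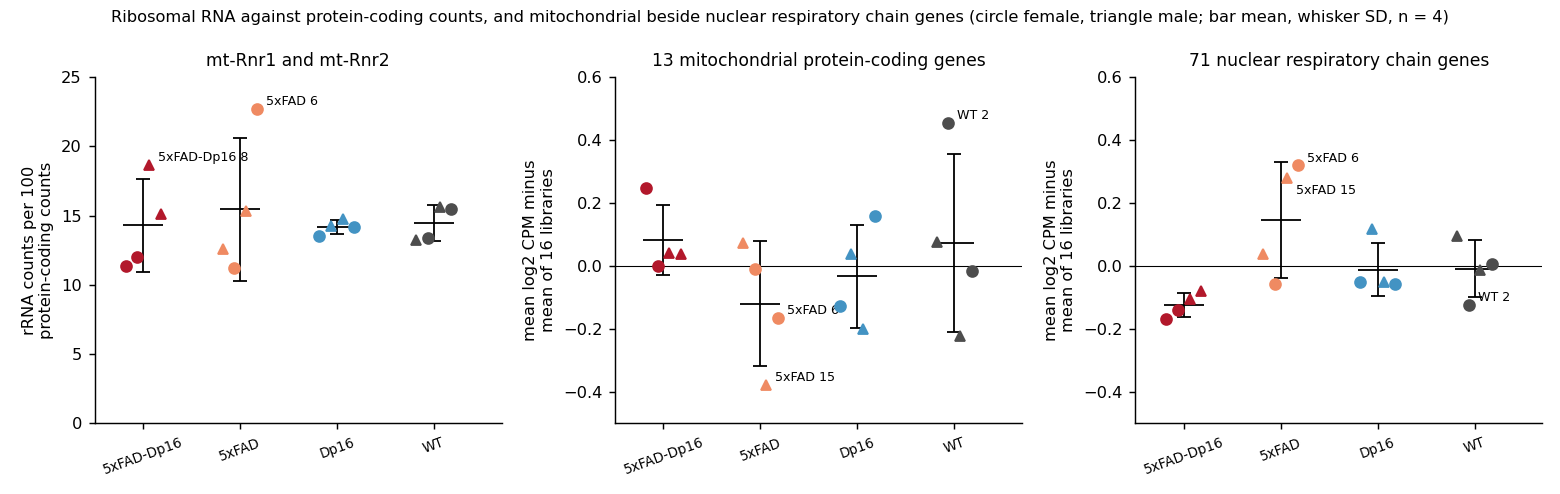
rRNA counts per 100 protein-coding counts (left) and the mean log2 CPM relative to the mean of all 16 libraries for the 13 mitochondrial (middle) and 71 nuclear respiratory chain genes (right), with 1 point per library, bars for the group mean and whiskers for the SD. 5xFAD 6 is highest for rRNA (22.7), and 5xFAD 6 and 15 are highest for the nuclear genes (0.32 and 0.28).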

How the data were processed

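Polyadenylated RNA of 16 hippocampus libraries was sequenced in paired reads of 150 bases with a strand-specific kit, per the labels' protocols. The authors deposited raw read counts per gene and RPKM values for the same libraries; HISAT2 2.1.0, SAMtools 1.5, HTSeq 0.6.1, FastQC 0.11.5, bcl2fastq and GRCm38 are named per the submitters' processing notes. The deposited RPKM values relate the counted reads to gene length and library total, and the strand setting and the treatment of multi-mapping reads are not given in the sources used here.

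Libraries were grouped by genotype from the labels. Counts were fitted with edgeR 4.0.16 in R 4.3.3 (robust quasi-likelihood, TMM scaling, genotype and sex as terms, all 16 libraries), after a filter with a minimum count of 10 that left 17132 genes. Pairwise contrasts, the mean contrasts of amyloid and Dp16 carriers, their interaction and sex were tested with Benjamini-Hochberg adjustment and a threshold of 0.05. CPM of single genes in the libraries is scaled by TMM. The summed CPM of the tRNA genes, its differences and the floor for a count of 0 are relative to all gene counts and unscaled. Shares are percentages of all gene counts and were compared with exact permutation tests that listed every permitted split (numpy 2.4.6). Their Wilson intervals came from scipy 1.17.1. DESeq2 1.42.0, limma 3.58.1 on log2(RPKM + 0.1), other scalings, filters and subsets of libraries were alternatives. The fits were tested on simulated data.

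Nuclear copies were found by matching mitochondrial to nuclear transcripts of GENCODE M21 with blastn 2.17.0 (at least 95% identity over at least 100 bases); a match on the genome was planned, and transcripts were used in its place. Members and lists were chosen with earlier results of these data known. Values in every library were given for the 5 protein-coding genes of highest RPKM, both rRNA genes, mt-Nd6 and the 3 tRNA genes of highest count. mt-Nd4l, mt-Atp6, mt-Atp8, mt-Co2, mt-Co3 and the copies were named after their values were seen. For nuclear lists, called genes were named. Wilson intervals and the floor for a count of 0 cover counting error only, and the 95% intervals of fold changes come from the edgeR fit and cover the spread between libraries.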

Additional observations from a re-analysis of the deposited data

Results flagged for a closer look

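Within each genotype, the highest and the lowest library were set against the others with Dixon's criterion, for 136 combinations of a genotype and a value, of which 9 passed. Chance passes about 1 in 20 such groups. WT 2 had a mitochondrial share of 6.87%, and the other WT libraries had 5.20 to 5.44%. 5xFAD 6 had an rRNA share of 1.02%, and the other 5xFAD libraries had 0.627 to 0.690%. The same library had 83.6 CPM of mt-Co3, and the others of its group 47.7 to 49.5 CPM. 5xFAD-Dp16 1 had 6679 CPM of mt-Nd2 and 69.4 CPM of mt-Nd6, and the others of its group had 5578 to 5735 CPM and 49.1 to 51.6 CPM. Dp16 5 had 11.9 CPM of mt-Atp8, and the other Dp16 libraries had 9.07 to 9.36 CPM.

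Among the chromosome 1 copies, Gm29216 had 283.5 CPM in Dp16 3 and 30.2 to 48.6 CPM in the other Dp16 libraries. Gm28437, the copy of mt-Co3, had 69.6 CPM in 5xFAD-Dp16 11 and 41.2 to 44.4 CPM in the others of that genotype. In WT 4 it had 34.9 CPM, and in the other WT libraries 44.5 to 45.2 CPM. Thalamus markers were high in 5xFAD-Dp16 1, 5xFAD 6 and WT 4 and not in 5xFAD-Dp16 11, Dp16 3, Dp16 5 or WT 2, and their part in these values was not tested.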

How the results depend on the processing

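No paired analysis was possible because each replicate number in the titles belongs to 1 library alone, and the sample numbers of the source names only follow the listing within a group. With no low-count filter, calls over all genes ran from 290 of 32180 in the interaction to 2793 of 32180 for the amyloid carriers. In 5xFAD against WT, 2124 of 17132 genes were called with DESeq2 and 1323 with no sex term. With scaling by mitochondrial protein-coding counts it was 626 there and 283 in 5xFAD-Dp16 against WT. Counts of members called were 1 in place of 0 with no low-count filter in 7 comparisons (3 for the amyloid carriers, 0 for 5xFAD-Dp16 against 5xFAD). They were also 1 with DESeq2 and with no sex term in 5xFAD against WT, with scaling by mitochondrial protein-coding counts in 5xFAD against WT and 5xFAD-Dp16 against WT, and without the 6 libraries of high thalamus markers in 5xFAD-Dp16 against Dp16. That scaling moved the median of all genes by 0.10 in 5xFAD against WT, to 0.13, by -0.11 in 5xFAD-Dp16 against WT, to -0.12, and by -0.22, the largest move among the 9 comparisons, in 5xFAD-Dp16 against 5xFAD. mt-Co1 changed sign in 5xFAD against WT, to 0.013 with that scaling, 0.062 without the 6 libraries (1 5xFAD library left) and 0.031 without WT 2 and WT 16. In Dp16 against WT it changed to 0.047 without WT 2 and WT 16. The cause was not tested.

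Counts of nuclear list genes called moved as follows. In 5xFAD against WT (4 genes) they were 8 with DESeq2, 7 with limma and 0 on 2 groups only, without the 6 libraries or without WT 2 and WT 16. In 5xFAD-Dp16 against 5xFAD (0 genes) they were 27 with no filter, 23 with DESeq2 and 1 with limma or without TMM. In 5xFAD-Dp16 against Dp16 (0 genes) they were 1 with no filter and 4 with DESeq2. In 5xFAD-Dp16 against WT (1 gene) they were 2 with no filter, DESeq2 or 2 groups only and 0 without WT 2 and WT 16. For the amyloid carriers (3 genes) they were 1 with no filter, 9 with DESeq2 and 0 without the 6 libraries or WT 2 and WT 16. For the duplication (1 gene) they were 13 with no filter, 6 with DESeq2 and 0 without the 6 libraries or WT 2 and WT 16. With no filter they were 1 for the interaction and 1 between the sexes. Calls over all genes moved as well. In 5xFAD against WT DESeq2 called 2124 of 17132 genes and limma 1425. In 5xFAD-Dp16 against 5xFAD 1656 of 32180 were called with no filter and 720 of 17132 with DESeq2. With limma 51 of 17132 were called there, and without TMM 48. In 5xFAD-Dp16 against Dp16 it was 890 of 32180 with no filter and 689 of 17132 with DESeq2. In 5xFAD-Dp16 against WT it was 942 of 32180 with no filter and 680 of 17132 with DESeq2. On 2 groups only 552 of 16114 were called there, and without WT 2 and WT 16 294 of 17947. For the amyloid carriers it was 2793 of 32180 with no filter and 2367 of 17132 with DESeq2. For the duplication it was 1447 of 32180 with no filter and 489 of 17132 with DESeq2. With no filter it was 290 of 32180 for the interaction and 330 between the sexes.

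Without the 6 libraries of high thalamus markers, differences in share changed sign in 5xFAD against WT, to 0.272 points for all genes, 0.307 for protein-coding genes, -0.0343 for rRNA genes and -3.29 CPM for tRNA genes. In 5xFAD-Dp16 against 5xFAD they changed to -0.304 points, -0.385 points for protein-coding genes and 2.59 CPM for tRNA genes, and in 5xFAD-Dp16 against WT to -0.0311 and -0.0777 points. They were -0.321 CPM for tRNA genes in amyloid carriers. For the duplication they were -0.365, -0.366 and, for rRNA genes, 0.0015 points, and for rRNA genes between the sexes -0.0236 points.

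Leaving out 1 library at a time gave 0 to 1 members called in 5xFAD against WT, 5xFAD-Dp16 against 5xFAD and 5xFAD-Dp16 against WT, and 0 in the 6 other comparisons. The members called were mt-Nd4l (5xFAD against WT without WT 4, WT 7 or 5xFAD 10, and 5xFAD-Dp16 against WT without WT 7) and mt-Nd5 (5xFAD-Dp16 against 5xFAD without 5xFAD 10). mt-Co1 spanned -0.15 to 0.015 in 5xFAD against WT and -0.16 to 0.021 in Dp16 against WT. Nuclear list genes called were 0 to 30 in 5xFAD against WT, 0 to 63 in 5xFAD-Dp16 against 5xFAD, 0 to 1 in 5xFAD-Dp16 against WT, 0 to 12 for the amyloid carriers and 0 to 19 for the duplication. Over all genes the calls were 562 to 3486, 32 to 2045, 435 to 491, 1050 to 3327 and 64 to 1199 in the same order. In 5xFAD-Dp16 against 5xFAD the differences in share were 0.134 to 0.556 points for all genes, 0.137 to 0.594 for protein-coding genes, -0.0419 to 0.0929 for rRNA genes and -2.04 to 0.668 CPM for tRNA genes. In 5xFAD-Dp16 against Dp16 the differences in share were 0.322 to 0.758 points for all genes, 0.242 to 0.689 for protein-coding genes, 0.0166 to 0.0933 for rRNA genes and -1.11 to 1.35 CPM for tRNA genes. In 5xFAD-Dp16 against WT the differences in share were 0.145 to 0.749 points for all genes, 0.0935 to 0.686 for protein-coding genes, -0.0124 to 0.0643 for rRNA genes and -1.9996 to 0.296 CPM for tRNA genes. In 5xFAD against WT the differences in share were -0.191 to 0.363 points for all genes, -0.254 to 0.303 for protein-coding genes, -0.0606 to 0.0699 for rRNA genes and -1.32 to 0.986 CPM for tRNA genes. In Dp16 against WT the differences in share were -0.386 to 0.200 points for all genes, -0.330 to 0.198 for protein-coding genes, -0.0570 to 0.00159 for rRNA genes and -1.99 to 0.228 CPM for tRNA genes. In carriers against non-carriers of the amyloid transgenes the differences in share were 0.143 to 0.442 points for all genes, 0.0891 to 0.381 for protein-coding genes, 0.00698 to 0.0629 for rRNA genes and -0.489 to 0.610 CPM for tRNA genes. In carriers against non-carriers of the duplication the differences in share were -0.0318 to 0.267 points for all genes, -0.0226 to 0.269 for protein-coding genes, -0.0366 to 0.0276 for rRNA genes and -1.39 to -0.205 CPM for tRNA genes. In females against males the differences in share were 0.282 to 0.519 points for all genes, 0.277 to 0.507 for protein-coding genes, -0.0298 to 0.0345 for rRNA genes and 0.616 to 1.80 CPM for tRNA genes. Low counts limit the tRNA genes, whose median 95% half-width of 0.59 to 0.60 in the pairwise comparisons exceeded the 0.34 of the protein-coding genes, and shared sequence limits the 5 copied genes.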
